A study of Bos taurus with 72 samples.

Results

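The 7 genes described here encode signals, receptors and an antimicrobial protein of innate immunity in mammary epithelium. They were chosen by name, as CXCL8 (ENSBTAG00000019716), IL6 (ENSBTAG00000014921), IL1B (ENSBTAG00000001321), TNF (ENSBTAG00000025471), TLR2 (ENSBTAG00000008008), TLR4 (ENSBTAG00000006240) and LTF (ENSBTAG00000001292), and they are 7 of the 29550 genes in the table. Bovine mammary epithelial cells (BMECs) are the cells that line the milk-producing alveoli and ducts of the udder. These were primary wild-type cells grown out from the udders of healthy cows, separated from fibroblasts by trypsin treatment and used at 6 passages, and how many cows gave cells is not stated in the sources used here. After serum starvation overnight, the cells spent 6 h in 1 of 12 media, with 6 replicates of each, and RNA-seq of the 72 cultures gave FPKM, a level scaled by gene length and by the depth of the library. NEG was DMEM-F12, a basal culture medium, without any essential amino acid (EAA). POS was the complete DMEM-F12. The other 10 media were NEG with a single EAA added back, namely arginine (Arg), histidine (His), isoleucine (Ile), leucine (Leu), lysine (Lys), methionine (Met), phenylalanine (Phe), threonine (Thr), tryptophan (Trp) or valine (Val). No medium is described as holding bacteria, lipopolysaccharide or a cytokine, so the values are levels without a named immune stimulus.

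In mammary tissue the epithelium takes part in the first response to bacteria that enter through the teat. Toll-like receptors on its surface bind bacterial molecules and signal through NF-kappa B, which switches on genes of cytokines and chemokines that draw neutrophils into the gland and raise the acute-phase response. Lactoferrin, the product of LTF, is secreted into milk, where it binds iron that bacteria need.

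The paper calls the replicates biological, and neither it nor the labels say whether they came from separate isolations or animals, so the p-values measure the spread between these cultures. The table pairs no gene symbols with its identifiers, so neither markers of epithelial, stromal or immune cells nor other genes of the Toll-like receptor pathway were examined, and the cell type label could not be checked against its markers. Between 12006111 and 18602430 reads assigned to genes, as recovered from the FPKM, stood behind a library. The paper lists more clean reads for each library, from paired-end sequencing, so these totals are not the sequencing depth. Leu_1, Arg_4 and POS_4 had the fewest genes above 0, with 10495, 11838 and 13537 genes. Leu_1 and Arg_4 also had the lowest mapping efficiencies that the paper lists, well below those of the other libraries. NEG_2 had 1.18 reads for each read that its FPKM scaling counted, and the highest such value in any other library was 1.05. Calls that change without these libraries are given beside the result.

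The members covered a wide span of levels. Per length, the mean over the 72 libraries was 174 FPKM for IL6, 16.8 FPKM for CXCL8 and 2.53 FPKM for TLR4. LTF averaged 0.196 FPKM, TLR2 0.133 FPKM, TNF 0.0446 FPKM and IL1B 0.0240 FPKM. A gene entered the tests when its mean was at least 1 FPKM, which 12121 genes did. Of the 7 members, 3 passed, namely IL6, CXCL8 and TLR4. The other 4 rested on 0 to 30 reads per library.

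Each medium was compared with NEG by limma on log2(FPKM + 1), and a gene was called at a Benjamini-Hochberg adjusted p under 0.05 over the 12121 genes. In Arg, 2 of the 3 fitted members were called, IL6 and CXCL8, against 6.63% of all genes tested. That share, 804 genes, rested on single libraries, with 122 genes called without NEG_1 and 2071 genes, or 17.1%, without Arg_4. POS also called IL6 and CXCL8, where 32.7% of all genes were called. Met called CXCL8 and TLR4, against 47.7% of all genes, and Val called the same pair, against 61.4%. In 4 media CXCL8 was the member called, and the share of all genes was 57.8% in His, 40.9% in Ile, 50.3% in Leu and 39.7% in Lys. In Phe, Thr and Trp limma called 0 of the 3, where 12.2%, 0.033% and 42.5% of all genes were called, and voom, the count version of limma, also called 0. With a library left out, the share of all genes went from 0.0743% without Phe_5 to 34% without NEG_2 in Phe, and reached 21.5% without NEG_2 in Thr. At an unadjusted p under 0.05 both methods had 2 members in Phe, 2 in Thr and 0 in Trp, where limma had 41.2%, 34.4% and 52% of all genes at that limit. In most of these comparisons a large part of the transcriptome moved, so a call alone does not set a member apart from other genes. All 11 comparisons share the 6 NEG libraries.

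Over the 12 media together, the levels of all 3 fitted members differed. The moderated F of limma was 94.0 for IL6 (adjusted p = 4.88e-32), 24.2 for CXCL8 (adjusted p = 7.21e-17) and 5.81 for TLR4 (adjusted p = 6.61e-06). By this test 87% of all genes were called.

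IL6, a cytokine that drives the acute-phase response, was abundant and fell in the complete medium and with arginine alone. In NEG the 6 libraries had 155, 155, 163, 181, 183 and 316 FPKM, the last of them NEG_2. In POS they ran from 21.8 to 34.2 FPKM with a median of 27.6 FPKM, and every POS library lay below every library of the other 11 media. The level was 6.89-fold lower than in NEG by the means (27.9 ± 4.80 against 192 ± 62.0 FPKM, SD, n = 6 each). On the log2 scale IL6 fell by 2.71 (SE 0.18, limma adjusted p = 4.04e-07).

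With Arg, IL6 ran from 47.4 to 89.0 FPKM with a median of 67.2 FPKM. The Arg libraries lay between POS and the other 10 media without overlapping either. The mean was 69.9 ± 15.5 FPKM (SD, n = 6), 2.75-fold lower than in NEG, and the log2 change was -1.43 (SE 0.20, limma adjusted p = 0.00473). In a bulk culture, fewer cells that make the transcript and less transcript per cell cannot be told apart. Both falls also passed the limits that the study set for a differentially expressed gene, which ask for a log2 change larger than 1 either way with an unadjusted p below 0.05, and which 3.15% of all genes passed in Arg and 10.4% in POS. With a library left out, the share past these limits in Arg went from 1.17% without Arg_4 to 4.97% without Arg_5.

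**Figure D1:**
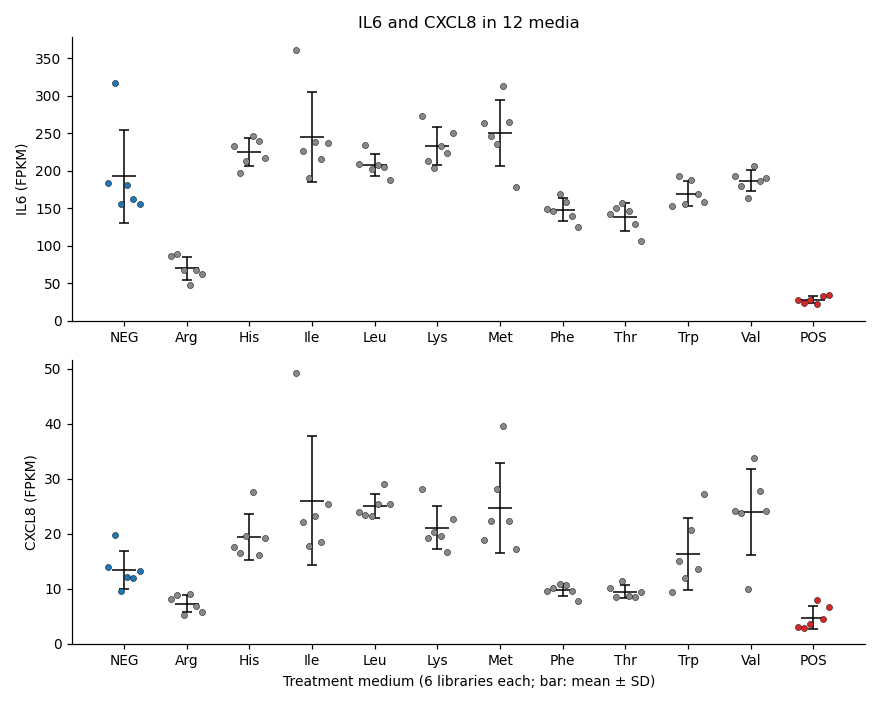
FPKM of IL6 (upper) and CXCL8 (lower) in each of the 72 libraries by medium, with points for the 6 libraries and a bar for the mean ± SD. IL6 lies between 21.8 and 34.2 FPKM in POS, below every other library, and CXCL8 is highest by its mean in Ile at 26.03 FPKM, where a single library reaches 49.2 FPKM.

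In the other 9 media IL6 stayed at the level of 138 to 250 FPKM by the mean, and no change passed the test with all 6 NEG libraries. The order from the top was Met at 250 ± 44.3 FPKM, Ile at 245 ± 59.7 FPKM, Lys at 233 ± 25.5 FPKM, His at 224 ± 18.6 FPKM and Leu at 207 ± 14.9 FPKM. Below NEG came Val at 186 ± 14.1 FPKM, Trp at 169 ± 17.1 FPKM, Phe at 148 ± 15.5 FPKM and Thr at 138 ± 18.2 FPKM (SD, n = 6 each). Neighbours in this order overlapped in their libraries down to Thr, and the breaks came between Thr and Arg and between Arg and POS. IL6 ranked from 267 in Met to 511 in Thr among the 29550 genes in these 9 media by mean FPKM, and stood at 1041 in Arg and 2884 in POS.

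In 6 of these 9 media the call of IL6 changed with the library NEG_2. Its 316 FPKM compares with 155 to 183 FPKM in the other 5 NEG libraries, whose mean was 167 ± 13.7 FPKM (SD, n = 5). Without it, IL6 was called in 8 comparisons in place of 2.

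In His the IL6 log2 change against NEG was 0.27 (95% interval -0.07 to 0.60) with all libraries and 0.42 without NEG_2 (limma adjusted p = 0.000573), where 67.4% of all genes were called. Met gave 0.40 (0.02 to 0.79) with all libraries and 0.56 without NEG_2 (adjusted p = 0.00348, 54.4% of genes). IL6 in Met was also called without Met_6, at 0.50 (adjusted p = 0.0272), where 2463 genes were called up and 3903 down. For Lys the change was 0.32 (-0.02 to 0.65), then 0.47 without NEG_2 (adjusted p = 0.000751, 46.6% of genes). These 3 media, with Ile and Leu, were the ones in which IL6 was called higher than in NEG once that library was left out. Ile went from 0.36 (-0.04 to 0.76) to 0.52 (adjusted p = 0.00933, 48.3% of genes), and Leu from 0.16 (-0.20 to 0.51) to 0.31 (adjusted p = 0.0111, 49.9% of genes). Thr was lower, with -0.44 (-0.78 to -0.09) and then -0.28 (adjusted p = 0.0391, 21.5% of genes). Phe had -0.34 (-0.67 to -0.004) with all libraries and -0.18 without NEG_2 (adjusted p = 0.0652). Trp and Val were not called either way, with -0.14 (-0.48 to 0.20) in Trp and 0.00 (-0.34 to 0.34) in Val. Some calls also came with NEG_2 kept, 4 of the 9 when scaled by total reads (His, Ile, Lys and Met), 3 in 1 fit of the 12 media (Ile, Met and Thr) and 7 with sample weights (all but Phe and Trp). Of the 12121 genes, scaling by total reads called 3591 up and 3553 down in His, and 2483 and 2358 in Ile. In Lys it called 2175 and 2531, and in Met 2604 and 3097. The 1 fit called 1144 up and 1358 down in Ile, 1857 and 2257 in Met, and 355 and 94 in Thr. With sample weights, 33.2% (Thr) to 81.1% (Val) of all genes were called in those 7 media. The size of the IL6 changes in these 9 media stayed under those in Arg and POS.

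**Figure D2:**
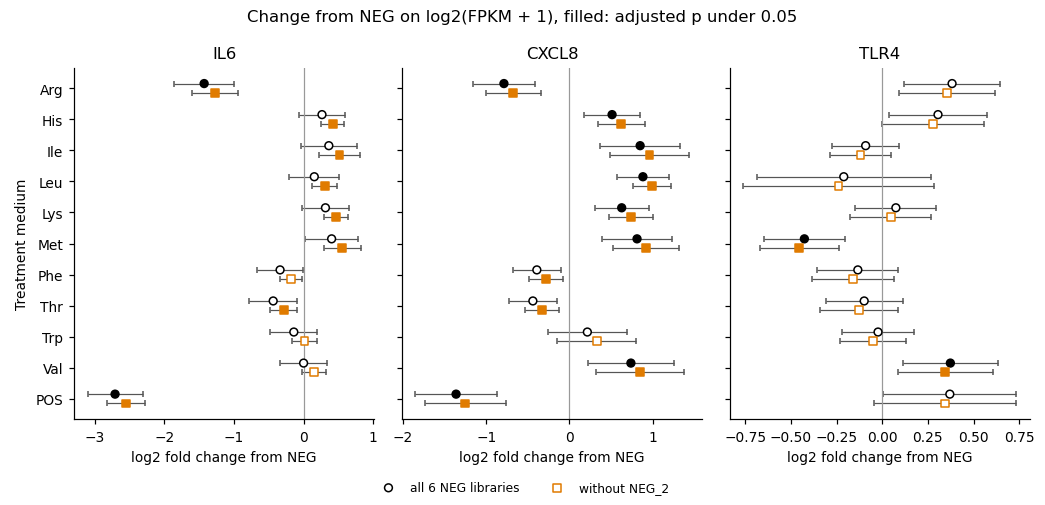
The log2 fold change of IL6, CXCL8 and TLR4 in each medium against NEG on log2(FPKM + 1), with 95% intervals, for all 6 NEG libraries (black circles) and without NEG_2 (orange squares), where a filled symbol marks a limma adjusted p under 0.05. IL6 is filled in Arg and POS alone with all libraries and in 8 media without NEG_2, while CXCL8 is filled in 8 media with all libraries.

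CXCL8, the chemokine interleukin 8 that attracts neutrophils, moved in both directions. It rose in 6 media with a single EAA, fell in POS, and fell in Arg by a call that 1 library could undo. In NEG the 6 libraries had 9.56, 11.9, 12.1, 13.2, 14.0 and 19.8 FPKM, and the highest was again NEG_2. All POS and Arg libraries lay below this range.

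In POS the CXCL8 libraries ran from 2.88 to 7.95 FPKM with a median of 4.04 FPKM. The mean of 4.77 ± 2.06 FPKM (SD, n = 6) was 2.81-fold lower than the 13.4 ± 3.47 FPKM of NEG. The log2 change was -1.36 (SE 0.23, limma adjusted p = 0.000737), the largest for this gene and the sole one past the study's limits. With Arg, CXCL8 ran from 5.19 to 9.02 FPKM with a median of 7.50 FPKM and a mean of 7.32 ± 1.60 FPKM (SD, n = 6). Its log2 change there was -0.79 (SE 0.17, limma adjusted p = 0.0241). Leaving out any one of NEG_1, NEG_4, NEG_5, NEG_6 or Arg_1 took the adjusted p to between 0.0529 and 0.0660, with log2 changes from -0.82 to -0.77. The call of CXCL8 in Arg was also lost when the replicate number was fitted as a block.

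Leucine gave the rise of CXCL8 with the least spread. The 6 Leu libraries ran from 23.3 to 29.05 FPKM with a median of 24.7 FPKM, all above the highest NEG library. The mean of 25.1 ± 2.15 FPKM (SD, n = 6) was 1.87-fold that of NEG, and the log2 change was 0.88 (SE 0.14, limma adjusted p = 0.000803).

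Isoleucine, methionine and valine, with means close to that of Leu, had wider spreads. In Ile the libraries ran from 17.8 to 49.2 FPKM with a median of 22.6 FPKM, and the highest, Ile_1, was the highest of all 72. The log2 change in Ile was 0.85 (SE 0.22, limma adjusted p = 0.00914), and 0.65 without Ile_1 (adjusted p = 0.00581). Met libraries ran from 17.2 to 39.6 FPKM with a median of 22.3 FPKM, and the change was 0.81 (SE 0.20, adjusted p = 0.00524). These ranges in Ile and Met both began below the top NEG library and overlapped NEG only through it. Val libraries ran from 9.96 to 33.7 FPKM with a median of 24.1 FPKM, where the lowest, Val_3, lay inside the range of NEG and the other 5 had 23.7 FPKM or more. The change in Val was 0.74 (SE 0.24, adjusted p = 0.0168), and 0.96 without Val_3 (adjusted p = 0.000116). With no filter on low FPKM, which enters 23683 genes, the call in Val was just lost (limma adjusted p = 0.0501).

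The rises in Lys and His were smaller. Lys libraries ran from 16.7 to 28.1 FPKM with a median of 19.97 FPKM, and the log2 change was 0.63 (SE 0.15, limma adjusted p = 0.00695). His libraries ran from 16.2 to 27.6 FPKM with a median of 18.4 FPKM, with a change of 0.51 (SE 0.16, adjusted p = 0.0136). NEG_2 was the one NEG library that either medium overlapped.

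For Trp, Phe and Thr the test did not call CXCL8. Trp spread from 9.32 to 27.3 FPKM across the whole range of NEG and beyond, and its log2 change was 0.22 (95% interval -0.26 to 0.69). Phe ran from 7.80 to 10.96 FPKM, with a change of -0.39 (-0.68 to -0.10, limma adjusted p = 0.0641). Thr ran from 8.45 to 11.5 FPKM, with a change of -0.44 (-0.73 to -0.15, adjusted p = 0.0880). Both were called without NEG_2, at -0.28 in Phe (adjusted p = 0.0353, against 34% of all genes) and -0.33 in Thr (adjusted p = 0.0285, against 21.5%). Phe was called without NEG_3 as well, at -0.48 (adjusted p = 0.0443), where 464 genes were called up and 749 down. With NEG_2 kept and sample weights, CXCL8 was called at -0.26 in Phe (adjusted p = 0.0321) and -0.36 in Thr (adjusted p = 0.00509), where 37.7% and 33.2% of all genes were called.

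By its mean, CXCL8 stood in the order Ile (26.03 FPKM), Leu (25.1 FPKM), Met (24.7 FPKM), Val (23.9 FPKM), Lys (21.1 FPKM), His (19.5 FPKM), Trp (16.3 FPKM), NEG (13.4 FPKM), Phe (9.82 FPKM), Thr (9.47 FPKM), Arg (7.32 FPKM) and POS (4.77 FPKM). The libraries of each medium overlapped those of the next in this order. The first place of Ile rested on Ile_1, without which its mean was 21.4 ± 3.19 FPKM, and without Val_3 the mean of Val was 26.7 ± 4.28 FPKM (SD, n = 5 each). Among all genes its rank by mean FPKM went from 3073 in Ile to 8981 in POS.

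CXCL8 and IL6 were both lowest in POS and Arg, yet they did not keep a fixed proportion. For each 100 FPKM of IL6, NEG libraries had 6.16 to 8.50 FPKM of CXCL8, with a median of 7.001 FPKM. POS libraries had 11.3 to 36.4 FPKM, and Leu libraries 9.99 to 14.2 FPKM. Neither group overlapped NEG, and the same held for Ile, with 8.62 to 13.6 FPKM. In POS the highest of these values came from POS_4 and in Arg from Arg_4, both of them libraries with few genes above 0. Phe, with 6.27 to 6.99 FPKM, and Thr, with 5.64 to 8.90 FPKM, stayed within or close to the NEG range. Val had 6.08 FPKM in Val_3 and 12.5 FPKM or more in the other 5 libraries. The proportion was worked out after the levels had been seen and was not tested.

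**Figure D3:**
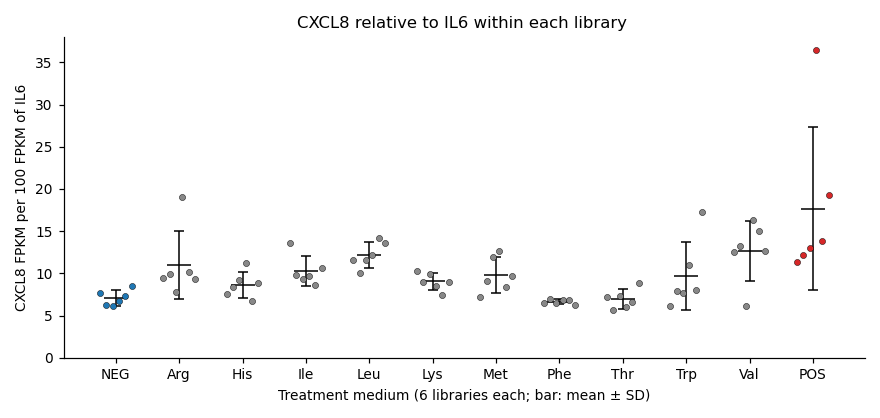
CXCL8 FPKM per 100 FPKM of IL6 within each library, by medium, with points for the 6 libraries and a bar for the mean ± SD. NEG libraries sit between 6.16 and 8.50, while POS libraries sit between 11.3 and 36.4, the highest being POS_4.

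Across the 72 libraries, log2(FPKM + 1) of IL6 and CXCL8 had a Pearson r of 0.84, and r was 0.91 over the 12 medium means. After the mean of each medium was taken out, r was 0.50. These are descriptions, since libraries of 1 medium share their treatment. The gene with the pattern most like that of IL6 among the 12121 was ENSBTAG00000007662 (r = 0.98 over 72 libraries), with 1861 ± 209 FPKM in NEG, 1040 ± 220 FPKM in Arg and 412 ± 25.9 FPKM in POS. For CXCL8 it was ENSBTAG00000032660 (r = 0.94), with 36.5 ± 7.54 FPKM in NEG, 23.3 ± 3.14 FPKM in Arg and 13.5 ± 3.12 FPKM in POS. The best match to TLR4 reached r = 0.73.

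TLR4, the receptor for lipopolysaccharide of Gram-negative bacteria, was expressed at a low level and changed little. It fell with methionine and rose with valine. The 6 NEG libraries had 2.01, 2.22, 2.30, 2.45, 2.46 and 2.53 FPKM, and 44 to 326 reads stood behind each of the 72 values.

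In Met the TLR4 libraries ran from 1.14 to 2.08 FPKM with a median of 1.44 FPKM. The highest of them overlapped the lowest NEG library, and the other 5 lay below NEG. The mean was 1.49 ± 0.332 FPKM against 2.33 ± 0.192 FPKM (SD, n = 6 each), and TLR4 fell by 0.43 on the log2 scale (SE 0.10, limma adjusted p = 0.00531). In Val the libraries ran from 2.29 to 4.04 FPKM with a median of 3.62 FPKM. The lowest was Val_3, which was also the lowest in Val for CXCL8. The mean was 3.355 ± 0.705 FPKM (SD, n = 6), and the log2 change was 0.37 (SE 0.12, limma adjusted p = 0.0165). Because 1 is added to each FPKM before the logarithm, these changes understate those of a gene at this level, and with 0.1 added the change in Val was 0.48. TLR4 passed the study's limits in 0 comparisons.

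**Figure D4:**
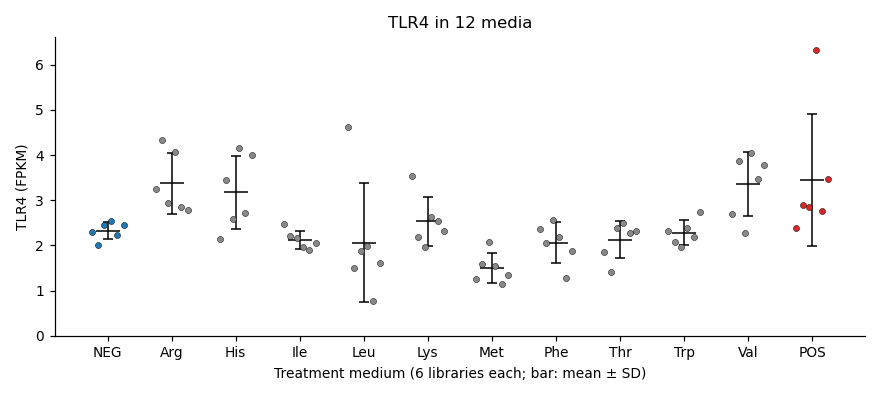
FPKM of TLR4 in each of the 72 libraries by medium, with points for the 6 libraries and a bar for the mean ± SD. NEG libraries sit between 2.01 and 2.53 FPKM, and Leu_1 at 4.62 FPKM and POS_4 at 6.33 FPKM stand above the rest of their media.

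Arg gave 2.78 to 4.34 FPKM of TLR4, all above NEG, with a mean of 3.37 ± 0.671 FPKM (SD, n = 6). Its log2 change of 0.38 (95% interval 0.12 to 0.65) did not pass the adjustment (limma adjusted p = 0.0687). His gave 2.14 to 4.16 FPKM and a change of 0.31 (0.03 to 0.58, adjusted p = 0.0513), which was called without His_1 (0.38, adjusted p = 0.0107) or without His_3 (0.34, adjusted p = 0.0431). Of the 12121 genes, 3001 were called up and 4485 down without His_1, and 2543 and 3905 without His_3. The TLR4 values in Arg and His reached higher than any in NEG. Scaled by total reads, both were called, at 0.47 in Arg (adjusted p = 0.0475) and 0.38 in His (adjusted p = 0.0278). This scaling called 627 genes up and 353 down in Arg, and 3591 and 3553 in His. Arg was called as well without Arg_4 and NEG_2 (0.31, adjusted p = 0.0484, against 25.2% of all genes) and with sample weights (0.20, adjusted p = 0.0198). His was called by voom (0.40, adjusted p = 0.0470) and with sample weights (0.30, adjusted p = 0.0111). Voom called 7029 of the 12121 genes in His. Sample weights called 36.3% of all genes in Arg and 75.2% in His.

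In POS and Leu a single library carried much of the TLR4 value. POS ran from 2.38 to 6.33 FPKM, where the top library was POS_4 and the other 5 averaged 2.87 ± 0.387 FPKM. The log2 change in POS was 0.37 (95% interval 0.01 to 0.73, limma adjusted p = 0.107), and 0.22 without POS_4 (adjusted p = 0.0905). It was called in 1 fit of the 12 media (adjusted p = 0.0425) and with sample weights (0.20, adjusted p = 0.00638). The 1 fit called 2644 genes up and 3090 down in POS. Leu ran from 0.775 to 4.62 FPKM, where the top library was Leu_1 and the other 5, with a mean of 1.55 ± 0.476 FPKM, all lay below the lowest NEG library. The log2 change in Leu was -0.21 (-0.69 to 0.27) with all 6 and -0.40 without Leu_1 (adjusted p = 0.0170, where 63.1% of all genes were called). With sample weights it was -0.42 (adjusted p = 0.00434), and these weights called 75.7% of all genes in Leu and 70.6% in POS. Leu_1 and POS_4 had the fewest genes above 0 in their media, and the part this has in their TLR4 values was not tested.

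The remaining 5 media gave TLR4 means of 2.53 ± 0.546 FPKM in Lys, 2.28 ± 0.276 FPKM in Trp, 2.13 ± 0.412 FPKM in Thr, 2.13 ± 0.203 FPKM in Ile and 2.06 ± 0.450 FPKM in Phe (SD, n = 6 each). Their log2 changes lay between -0.13 in Phe and 0.07 in Lys, and none passed the test. The widest intervals among them allowed changes from -0.36 in Phe to 0.30 in Lys. In the order of means, from POS at 3.45 FPKM to Met at 1.49 FPKM, each medium overlapped the next. TLR4 had a Pearson r of -0.38 with IL6 and -0.15 with CXCL8 over the 72 libraries, and of -0.002 with IL6 and 0.41 with CXCL8 once medium means were taken out.

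The 4 remaining members had few reads, with a median under 10 reads per library in NEG for each of them. A comparison was taken as too low to judge when the median reads per library were under 10 both in the medium and in NEG. This held for 33 of the 77 comparisons of the 7 members, 11 of them for IL1B, 11 for TNF, 7 for TLR2 (Ile, Leu, Met, Phe, Thr, Val and POS) and 4 for LTF (Ile, Leu, Met and Val), and for 0 of those of IL6, CXCL8 and TLR4. With a limit of 5 reads it held for 22, all of IL1B and TNF, and with a limit of 20 reads for 44, all of the 4 genes. Since NEG itself was under 10 reads for TLR2 (median 5.5) and LTF (median 9), a comparison of these genes passed only through the level in the medium. The counts of 7 and 4 therefore follow where the gene was higher, and all 11 comparisons of TLR2 and of LTF are given below as near the limit of detection.

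IL1B, the cytokine interleukin 1 beta, and TNF, tumour necrosis factor, were at or near 0. IL1B was at 0 in 47 of the 72 libraries and never had more than 5 reads, with 54 reads in all. A library at 0 allows up to 3 reads, which is 0.0852 to 0.135 FPKM for IL1B depending on the library, above its mean in every medium. TNF was at 0 in 37 libraries and had at most 9 reads, with 94 in all. These floors cover counting error alone.

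In NEG, IL1B had 5 reads in NEG_4, 2 in NEG_5 and 0 in the other 4 libraries. Its mean was highest in His at 0.0443 FPKM and lowest in POS at 0.0102 FPKM, with 0.0373 FPKM in NEG, 0.0369 FPKM in Phe, 0.0272 FPKM in Met, 0.0266 FPKM in Val, 0.0248 FPKM in Ile, 0.0204 FPKM in Arg, 0.0170 FPKM in Leu, 0.0162 FPKM in Trp, 0.0153 FPKM in Lys and 0.0116 FPKM in Thr. The lowest exact permutation p of its 11 comparisons with NEG was 0.576. For TNF the mean was highest in POS at 0.104 FPKM, from 0 to 7 reads per library, and lowest in His at 0.0166 FPKM. NEG had 0.0303 FPKM of TNF from 0 to 2 reads, and between these lay Val at 0.0714 FPKM, Phe at 0.0514 FPKM, Leu at 0.04995 FPKM, Met at 0.0467 FPKM, Trp at 0.0461 FPKM, Lys at 0.0339 FPKM, Arg at 0.0324 FPKM, Ile at 0.0290 FPKM and Thr at 0.0234 FPKM. The TNF difference between POS and NEG had the lowest p of its 11, an exact permutation p of 0.147. All 9 TNF reads of Leu came from Leu_2, and all 5 of Ile from Ile_5.

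**Figure D5:**
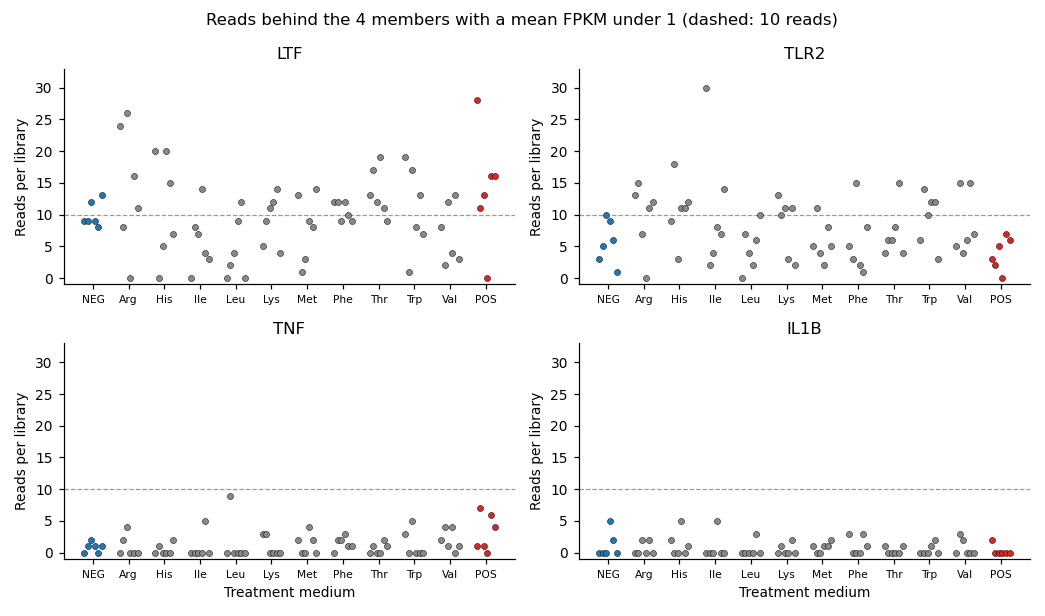
Reads per library of LTF, TLR2, TNF and IL1B by medium, with a point for each of the 72 libraries and a dashed line at 10 reads. IL1B and TNF stay under 10 reads in every library, while TLR2 reaches 30 reads in Ile_1 and LTF 28 reads in POS_1.

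TLR2, the receptor for bacterial lipopeptides, had 0 to 30 reads per library with a median of 6.5 reads, and was at 0 in 3 libraries. These were Arg_4, Leu_1 and POS_4, the libraries with the fewest genes above 0. The TLR2 means of Arg, Leu and POS below include these zeros. NEG libraries had 1, 3, 5, 6, 9 and 10 reads, a mean of 0.104 ± 0.0634 FPKM (SD, n = 6). By the mean the order from the top was Ile at 0.195 FPKM, His at 0.185 FPKM, Trp at 0.169 FPKM, Arg at 0.159 FPKM, Val at 0.157 FPKM, Lys at 0.147 FPKM, Thr at 0.128 FPKM and Met at 0.107 FPKM, with Phe at 0.0959 FPKM, Leu at 0.0862 FPKM and POS at 0.0632 FPKM below NEG. Ile owed its place to Ile_1, at 0.555 FPKM, without which it averaged 0.123 ± 0.0829 FPKM (SD, n = 5). Neighbours overlapped throughout, and so did every medium with NEG. Over all 11 comparisons of TLR2 the lowest p was that of His, with a difference of 0.0819 FPKM (exact permutation p = 0.0909), which does not pass.

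LTF, which encodes the iron-binding milk protein lactoferrin, had 0 to 28 reads per library with a median of 9 reads, and was at 0 in 6 libraries. These were Arg_4, Leu_1 and POS_4, which had the fewest genes above 0, and His_2, Ile_1 and Leu_6. The LTF means of their media include these zeros, so the order of the means rests partly on them. NEG libraries had 8, 9, 9, 9, 12 and 13 reads, a mean of 0.205 ± 0.0418 FPKM (SD, n = 6). Means above that of NEG were 0.270 FPKM in Thr, 0.264 FPKM in Arg, 0.263 FPKM in POS, 0.222 FPKM in His, 0.220 FPKM in Trp and 0.211 FPKM in Phe. Those below were 0.184 FPKM in Lys, 0.163 FPKM in Met, 0.138 FPKM in Val, 0.116 FPKM in Ile and 0.0922 FPKM in Leu. Every medium overlapped NEG. The largest difference of all was in Leu, with 0 to 12 reads and a median of 3 reads, where LTF was lower by 0.112 FPKM (treatment minus NEG, -0.112 FPKM, exact permutation p = 0.0476). Ile (-0.0880 FPKM, exact permutation p = 0.0563) and Thr (0.0654 FPKM, exact permutation p = 0.0519) came next by p and did not pass. With each of the 12 libraries left out in turn, LTF in Leu had an exact permutation p from 0.00649 without Leu_5 to 0.0887 without Leu_1, Leu_2 or Leu_6.

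Of the 44 comparisons of these 4 genes with NEG, that of LTF in Leu was the 1 with an exact permutation p under 0.05, before any adjustment, where the splits of 6 against 6 libraries allow 0.00216 at the least. When all genes above 0 were entered into limma, 0 of the 44 were called on log2(FPKM + 1), with 3 at an unadjusted p under 0.05 and a lowest adjusted p of 0.0857. By voom on the reads, 0 were called, with 1 at an unadjusted p under 0.05 and a lowest adjusted p of 0.0954. Differences for these genes were not detectable at this depth, which does not show that they are absent.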

How the data were processed

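RNA-seq of 72 BMEC libraries was used, 6 of each of 12 media. As deposited, the table of the authors gives FPKM for 29550 genes, with Ensembl identifiers for most rows and no symbols. The submitters' processing notes name HISAT2 (2.0.5), StringTie (1.3.3b), featureCounts (1.5.0-p3) and DESeq2 (1.20.0), and the paper names Trimmomatic, cufflinks and htseq-count, so which program counted the reads is not settled. The genome build and annotation are not given in the sources used here, and no positions or sequences are shown. The labels and the paper also differ on the library kit, the plate and the culture supplements, which all libraries share. Whether strand was used in counting is not stated.

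Gene symbols of the 7 members were given with the identifiers. The members and lists were chosen with earlier results of these data known. Planned lists of other pathway genes and of cell type markers could not be run, since no table pairs their symbols with the identifiers.

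Whole reads were recovered from the FPKM with a length per gene and a factor per library, and 100% of values came within 0.001 of a whole number. Totals over all genes were 12006111 to 18602430 reads, with a median of 15865515, which is not the sequencing depth. PCR copies were not marked, so floors of 3 reads cover counting error only. limma (3.58.1, R 4.3.3, trended prior) was run on log2(FPKM + 1) of the 12121 genes with a mean of at least 1 FPKM, on the 6 libraries of a medium and the 6 of NEG, with Benjamini-Hochberg adjustment over those genes, and an F-test over the 12 media on all 72. Members under the filter were compared with NEG by a two-sided exact permutation test of mean FPKM. Alternatives were a pseudocount of 0.1, no filter, scaling by total reads, voom on the reads, 1 fit of 12 media, sample weights, a replicate block, the study's limits, and each library left out. Voom called between 18 (Thr) and 7394 (Val) of the 12121 genes. All 7 members were named, with the gene most like each fitted member by Pearson r. Leaving out libraries for LTF and the proportion of CXCL8 to IL6 were added after the data were seen. Same-numbered libraries of NEG and a medium deviated together in all 6 pairs (r over 0.1) in Trp alone, and the labels give no source for such a pairing. Scripts were tested on simulated data. Python 3.11.15 with numpy 2.4.6, pandas 2.3.3, scipy 1.17.1 and matplotlib 3.10.9 was used.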

Additional observations from a re-analysis of the deposited data

Results flagged for a closer look

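In 14 of the 84 sets of 6 libraries (7 genes in 12 media), the highest library stood apart from the other 5 by Dixon's test. Chance alone gives about 1 set in 20 where values are normally distributed, which was not tested for these FPKM. That rate does not hold for the 7 sets of IL1B and TNF, which have ties at 0. For IL6 these were NEG_2 at 316 FPKM, with the next at 183 FPKM, and Ile_1 at 361 FPKM, with the next at 239 FPKM. For CXCL8 they were Ile_1 at 49.2 FPKM and His_4 at 27.6 FPKM. Ile_1 was the highest of all 72 libraries for IL6, CXCL8 and TLR2 alike. For TLR4 they were Leu_1 at 4.62 FPKM and POS_4 at 6.33 FPKM, both from libraries with few genes above 0. TLR2 had 0.276 FPKM in Thr_5.

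The other 7 sets came from genes with a handful of reads, in which 1 to 3 libraries had any. In 5 of them a single library had reads, which meets the criterion by construction. For IL1B they were NEG_4 at 0.164 FPKM, His_4 at 0.172 FPKM, Ile_4 at 0.149 FPKM, Leu_5 at 0.102 FPKM and POS_1 at 0.0612 FPKM. For TNF they were Ile_5 at 0.174 FPKM and Leu_2 at 0.2997 FPKM.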

How the results depend on the processing

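IL6 in Arg and POS, and CXCL8 in POS, were called lower under every setting tried and without any single library. IL6 was called in 2 media, but in 6 when scaled by total reads, 5 in 1 fit of 12 media, 9 with sample weights, 8 without Leu_1, Arg_4, POS_4 and NEG_2, and 2 to 8 when each library was left out. TLR4 was called in 2, but in 4 when scaled by total reads, 3 by voom and in 1 fit of 12 media, 6 with sample weights, 4 without those 4 libraries, and 0 by the study's limits. CXCL8 was called in 8, but in 10 with sample weights or without those 4 libraries, 7 with no filter, and 1 by the study's limits. The share of all genes called moved with the settings too. With sample weights it was 33.2% (Thr) to 81.1% (Val), above the main share in every medium. In 1 fit of 12 media, 1486 genes were called up and 1877 down in Arg, against 804 in the main fit. In Thr they were 355 and 94, against 4, and in POS 2644 and 3090, against 3969. Fewer were called in Ile (1144 and 1358, against 4958) and Met (1857 and 2257, against 5778). The cause of these shifts was not tested, apart from the part of NEG_2 given above. Sign changes among IL6, CXCL8 and TLR4 were at values near 0. IL6 in Trp gave a log2 change of 0.060 with sample weights, 0.014 without the 4 libraries, and -0.19 to 0.014 when each library was left out. IL6 in Val gave -0.051 to 0.15, TLR4 in Lys -0.00026 to 0.12 and TLR4 in Trp -0.062 to 0.0054 when each library was left out, and TLR4 in Trp gave 0.059 when scaled by total reads. Of the other comparisons of single values, 225 of those under other settings and 367 of those with a library left out kept direction and call, 34 and 13 gained a call, and 2 and 5 lost it. Scaling by total reads moved the median gene up against NEG in all 11 comparisons, by 0.049 to 0.13 on the log2 scale.

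By the correlations of deviations, all 6 same-numbered pairs of NEG and Trp lay above 0.1, between 0.102 and 0.244. This did not hold in the other 10 media. Correlations this low do not establish that replicate numbers pair the samples. Deviations of same-numbered libraries correlated above 0.1 in 18 of 66 pairs (range -0.30 to 0.27), and 16 of 66 libraries correlated best with their own number in NEG. In Trp the block called 0 of the 3 members, as the fit without it did. There it called 1897 genes up and 3374 down of 12121, and the fit without it called 42.5%. With the replicate block, IL6 was called in 2 media, CXCL8 in 7 (Arg had an adjusted p of 0.0648) and TLR4 in 2, with F values of 99.4, 26.5 and 6.32. Of the 12121 genes, the block called 7 in Arg, all lower, against 804 without it. It called 1436 up and 2074 down in POS, 2852 and 4196 in Val, and 2471 and 3844 in His. In Leu it called 2127 and 3170, and in Met 1771 and 3133. In Ile the counts were 1502 and 2655, and in Lys 1289 and 2748.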
